A study of Mus musculus with 908 samples.

Results

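The activin and BMP pathway genes were a set of 10 genes, taken by symbol from the 46517 gene rows of the deposited tables: the activin subunit gene Inhba, its antagonist gene Fst, the receptor genes Acvr1b, Acvr2a, Bmpr1a and Bmpr2, the BMP antagonist gene Sostdc1 and the target genes Id1, Id2 and Id3. All 10 were found in both tables. They were measured in mouse skin squamous cell carcinomas, in tumour cells sorted 1 to a well before or after adoptive cell transfer (ACT), a treatment in which T cells are infused. Of 908 libraries, each made from 1 well, 696 had at least 2000 genes with a TPM of at least 1, and those on 7 of the 11 plates were compared here. TPM is a share of a library's transcripts corrected for gene length.

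Activins and BMPs are secreted dimers of the TGF-beta family. Each is bound by a pair of type II and a pair of type I receptors, which phosphorylate SMAD proteins: activin receptors act on SMAD2 and SMAD3, as TGF-beta receptors do, and BMP receptors act on SMAD1, SMAD5 and SMAD8. In skin, activin A is known for its induction in wounds, and BMP signalling for keeping hair follicle stem cells at rest and for epidermal differentiation. Id1, Id2 and Id3 encode inhibitors of basic helix-loop-helix factors and are the classical transcriptional targets of BMP SMADs.

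The cells after transfer (87 on the plate named OT2 and 90 on OT_B) came from the strain TRE-OVA;TRE-HrasG12V:PGK-rtTA3P2AmCherry, with an inducible ovalbumin antigen, and the sort asked for mCherry but set no gate on α6, CD34 or CD44. In that strain mCherry follows rtTA3 behind the PGK promoter and is not a SMAD reporter. The 4 groups sorted before transfer came from the strain TRE-HrasG12V;SBE-mCherry-PGK-rtTA3, in which mCherry is driven by a SMAD binding element. The reporter-positive cells (73 on plate CSC1 and 32 on CSC2) were integrin α6+, CD34+, CD44+ and mCherry+. The CD44+ reporter-negative cells (15) were α6+, CD44+, CD34-negative and mCherry-negative. The CD44-negative α6+ cells (91) lacked mCherry, CD34 and CD44, and the α6-negative cells (43) lacked all 4 markers. All groups carried inducible HrasG12V and rtTA3 behind the PGK promoter, all were sorted as negative for CD45, CD117, CD140a and CD31, and all mice were labelled P60-P90 and of mixed sex. The labels name no animal, so each group counted as 1 sample: differences between groups carry no test, and intervals on shares of cells cover counting error only. Strain, antigen, sort and treatment all differ between the cells after transfer and the others, and their parts cannot be told apart.

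The median number of genes per cell was 6657 after transfer, 7760 in reporter-positive, 7222 in CD44+ reporter-negative, 6810 in CD44-negative α6+ and 5521 in α6-negative cells. Keratinocyte markers led in every cell after transfer, in the reporter-positive gate and in the CD44-negative α6+ gate. Fibroblast markers led in 15 of 43 α6-negative cells and in 1 of 15 CD44+ reporter-negative cells, and pericyte or muscle markers in 2 cells of each of these gates. The label of squamous carcinoma cells therefore did not match the markers of 17 α6-negative and 3 CD44+ reporter-negative cells, and values with and without them are given where they touch a member. Transcripts of the Y chromosome without Xist were found in all typed cells of the reporter-positive and α6-negative gates and after transfer. Xist without Y-linked transcripts was found in 12 of 15 CD44+ reporter-negative cells and in 42 of 91 CD44-negative α6+ cells, and the CD44-negative α6+ gate also held 44 cells with Y-linked transcripts only, so cells of both sexes were in it. Many cells were sequenced more than once, and 2 plates labelled after transfer (OT_C and OT_D) held second libraries of cells on CSC1, CSC2 and the CD44+ plate. These second libraries were left out of the groups and used to measure reproducibility. Within the used set, 3 pairs of wells had profiles correlated at r of at least 0.9, 1 pair each on CSC1, the CD44+ plate and the α6-negative plate, and counting each pair once moved no member's difference by as much as 1.5-fold.

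The promoters shown are those of the activin subunit gene and of the target genes Id2 and Id3. Those of the receptor genes also held SMAD motifs and are not shown. They are RefSeq sequences of build GRCm38.p6, from 250 bases before to 50 after the annotated start, in the direction of transcription, and capitals mark matches to the motifs GGCGCC (the palindromic BMP SMAD motif) and CAGAC (the SMAD3 motif, GTCTG on the other strand).
Inhba, chr13:16011601-16011900, plus strand: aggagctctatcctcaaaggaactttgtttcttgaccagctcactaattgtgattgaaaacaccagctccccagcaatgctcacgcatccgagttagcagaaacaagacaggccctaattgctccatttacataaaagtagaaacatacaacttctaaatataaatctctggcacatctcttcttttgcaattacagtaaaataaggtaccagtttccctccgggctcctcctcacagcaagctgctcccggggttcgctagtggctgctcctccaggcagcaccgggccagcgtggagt
Id2, chr12:25096043-25096342, minus strand: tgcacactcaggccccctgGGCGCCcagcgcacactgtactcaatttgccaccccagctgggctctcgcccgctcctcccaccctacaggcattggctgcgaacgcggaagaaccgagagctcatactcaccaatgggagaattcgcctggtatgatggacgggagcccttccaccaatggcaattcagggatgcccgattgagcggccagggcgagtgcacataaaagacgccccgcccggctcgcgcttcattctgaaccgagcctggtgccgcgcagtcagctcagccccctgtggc
Id3, chr4:136143572-136143871, plus strand: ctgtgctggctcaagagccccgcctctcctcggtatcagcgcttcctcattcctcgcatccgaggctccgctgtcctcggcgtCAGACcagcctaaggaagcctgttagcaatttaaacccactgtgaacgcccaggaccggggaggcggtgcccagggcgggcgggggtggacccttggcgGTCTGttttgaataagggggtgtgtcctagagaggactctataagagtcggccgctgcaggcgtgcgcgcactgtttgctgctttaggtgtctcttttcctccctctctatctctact
An entry was found for 7 of the 10 members, namely these 3 and the 4 receptor genes. The Inhba window held neither motif, nor TGANTCA, the AP-1 motif, on either strand. The Id2 window held 1 GGCGCC, with its first base at position -231 from the start, and the Id3 window held 2 matches to CAGAC, at positions -167 and -68. None of the matches overlapped. Among the receptor genes, Acvr1b, Bmpr1a and Bmpr2 had 1 GGCGCC each and Acvr2a had 1 CAGAC. Over 32851 RefSeq promoters of the same length, 49.6% held at least 1 CAGAC and 16.2% at least 2, 11.9% held GGCGCC and 7.81% held TGANTCA. A match to CAGAC is therefore common, and matches to the other 2 motifs are less so. The members' windows with GGCGCC were 59.3% to 79.7% G and C bases, and shares among promoters of like base content were not taken.

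Inhba encodes the βA subunit, 2 copies of which form activin A. It was detected, at a TPM of at least 1, in 7.34% of cells after transfer (exact 95% binomial interval 3.97 to 12.2%), 43.8% of reporter-positive cells (34.1 to 53.8%), 20% of CD44+ reporter-negative cells (4.33 to 48.1%), 6.59% of CD44-negative α6+ cells (2.46 to 13.8%) and 27.9% of α6-negative cells (15.3 to 43.7%). The interval of the reporter-positive gate lay above those of the cells after transfer and of the CD44-negative α6+ gate and overlapped those of the other two gates.

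The lowest and the median value of Inhba were 0 TPM in all 5 groups. Its highest value was 59.7 TPM after transfer, 344.1 TPM in a reporter-positive cell, 42.3 TPM in a CD44+ reporter-negative cell, 77.4 TPM in a CD44-negative α6+ cell and 165.9 TPM in an α6-negative cell. The ranges of all groups thus overlapped, and the groups differed in how many cells carried the transcript and how high it went. Mean Inhba was 1.24 TPM after transfer, 21.8 TPM in reporter-positive, 3.56 TPM in CD44+ reporter-negative, 1.28 TPM in CD44-negative α6+ and 22.8 TPM in α6-negative cells. In the reporter-positive gate 29 cells reached 10 TPM, 23 of them on CSC1.

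Both reporter-positive plates carried Inhba, at different levels. CSC1 had a mean of 28.1 TPM with 37 of 73 cells positive, and CSC2 had a mean of 7.30 TPM with 9 of 32 positive. After transfer, plate OT2 had a mean of 2.32 TPM and OT_B one of 0.198 TPM. The lower reporter-positive plate was therefore above both plates after transfer. Among cells of like depth, with 6000 to 8000 genes, Inhba was detected in 5.65% of cells after transfer, 50% of 58 reporter-positive cells, 20% of 10 CD44+ reporter-negative cells, 7.25% of 69 CD44-negative α6+ cells and 46.7% of 15 α6-negative cells.

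In the α6-negative gate, Inhba went with fibroblast markers. The 15 fibroblast-led cells averaged 46.02 TPM, 9 of them positive, against 9.38 TPM in the 26 keratinocyte-led cells, of which 2 were positive. In the CD44+ reporter-negative gate, the 3 positive cells were 1 keratinocyte-led cell at 42.3 TPM and both pericyte- or muscle-led cells, at 3.44 and 7.73 TPM. In the reporter-positive gate every positive cell was keratinocyte-led.

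**Figure D1:**
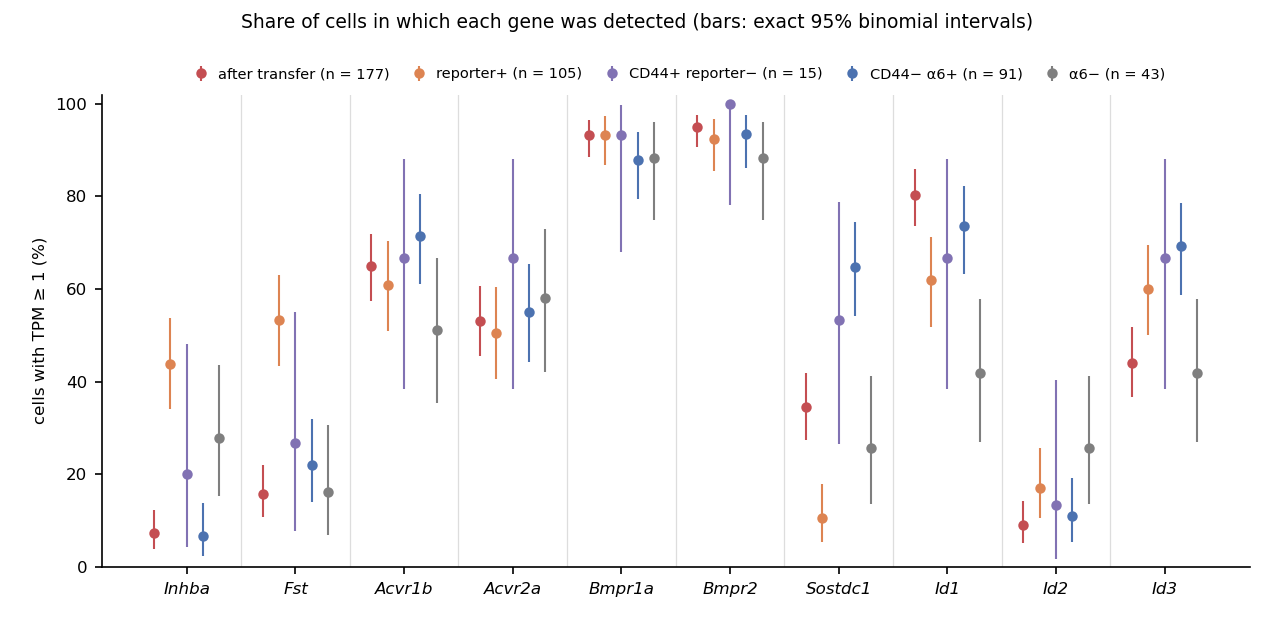
Share of cells (percent, vertical axis) in which each of the 10 genes reached a TPM of 1, by group, with exact 95% binomial intervals as bars. Inhba and Fst were highest in reporter-positive cells (43.8% and 53.3%), Sostdc1 was highest in CD44-negative α6+ cells (64.8%), and the 2 BMP receptor genes lay between 87.9% and 100% in every group.

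Fst encodes follistatin, which binds activin and keeps it from its receptors, and is itself a target of activin signalling in several cell types. Fst was detected in 15.8% of cells after transfer (interval 10.8 to 22.05%), 53.3% of reporter-positive cells (43.3 to 63.1%), 26.7% of CD44+ reporter-negative cells (7.79 to 55.1%), 22% of CD44-negative α6+ cells (13.97 to 31.9%) and 16.3% of α6-negative cells (6.81 to 30.7%). Its lowest value was 0 TPM everywhere and its median was 0 TPM in every group but the reporter-positive one, where it was 1.28 TPM. The highest value was 194.9 TPM after transfer, 270.4 TPM in reporter-positive, 156.4 TPM in CD44+ reporter-negative, 59.97 TPM in CD44-negative α6+ and 23.3 TPM in α6-negative cells.

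Mean Fst was 5.08 TPM after transfer, 14.5 TPM in reporter-positive, 14.6 TPM in CD44+ reporter-negative, 3.96 TPM in CD44-negative α6+ and 1.48 TPM in α6-negative cells. The reporter-positive mean rested on 1 plate. CSC1 averaged 20.04 TPM with 67.1% of cells positive, and CSC2 averaged 1.88 TPM with 21.9% positive, close to the 22% of the CD44-negative α6+ gate. The CD44+ reporter-negative mean rested on 4 positive cells, the highest of which held most of the sum. In the α6-negative gate all 7 positive cells were fibroblast-led, and Fst was 0 in each of the 26 keratinocyte-led cells, which allows a share of up to 13.2% by the exact interval.

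Sostdc1 encodes a secreted antagonist of BMPs that also binds the WNT co-receptors. It ran opposite to Inhba between the α6+ gates. It was detected in 34.5% of cells after transfer (interval 27.5 to 41.96%), 10.5% of reporter-positive cells (5.35 to 17.97%), 53.3% of CD44+ reporter-negative cells (26.6 to 78.7%), 64.8% of CD44-negative α6+ cells (54.1 to 74.6%) and 25.6% of α6-negative cells (13.5 to 41.2%). The interval of the reporter-positive gate lay below those of the cells after transfer and of both other α6+ gates.

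The lowest Sostdc1 value was 0 TPM in every group, and the median was 0 TPM after transfer, in reporter-positive and in α6-negative cells, 2.01 TPM in CD44+ reporter-negative and 12.5 TPM in CD44-negative α6+ cells. The highest value was 567 TPM after transfer, 201.2 TPM in reporter-positive, 272.7 TPM in CD44+ reporter-negative, 601 TPM in CD44-negative α6+ and 394.6 TPM in α6-negative cells. The mean was 13.6 TPM after transfer, 3.45 TPM in reporter-positive, 27.5 TPM in CD44+ reporter-negative, 69.4 TPM in CD44-negative α6+ and 17.1 TPM in α6-negative cells. Both reporter-positive plates were low, with means of 3.34 TPM on CSC1 and 3.70 TPM on CSC2, and 2 cells, at 201.2 and 108.04 TPM, held most of the sum. After transfer the plate means were 14.6 TPM on OT2 and 12.6 TPM on OT_B, with 29.9% and 38.9% of cells positive. On OT2, 1 cell at 567 TPM held 23.6% of the sum over both plates. Without it the mean after transfer was 10.4 TPM.

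Within the CD44-negative α6+ gate, the 42 cells with Xist only averaged 25.9 TPM of Sostdc1, and the 44 cells with Y-linked transcripts only averaged 104.03 TPM. The shares of positive cells were closer, at 59.5% (interval 43.3 to 74.4%) and 70.5% (54.8 to 83.2%). The gate's mean thus combined cells of both sexes at different levels, and sex and animal cannot be told apart. In the α6-negative gate all 11 positive cells were keratinocyte-led, with a mean of 28.2 TPM over the 26 such cells, and Sostdc1 was 0 in all 17 stromal-led cells. In this gate 1 cell at 394.6 TPM held 53.7% of the sum, and the keratinocyte-led mean was 13.6 TPM without it.

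**Figure D2:**
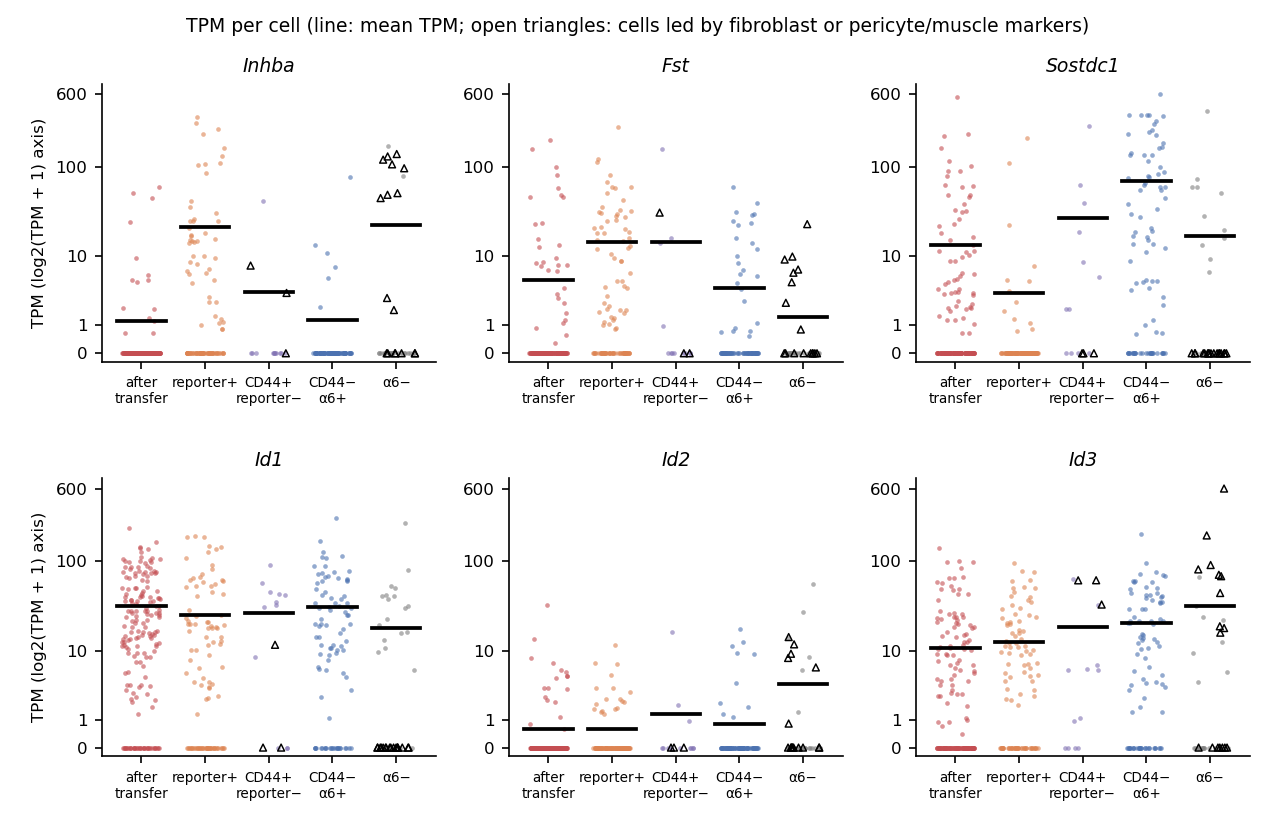
TPM per cell on a log2(TPM + 1) axis for Inhba, Fst, Sostdc1, Id1, Id2 and Id3 in the 5 groups, 1 point per cell, with the mean TPM as a line and cells led by fibroblast or pericyte and muscle markers as open triangles. Most cells sit at 0 for Inhba, Fst and Id2, the reporter-positive cells lack the Sostdc1 cloud seen in CD44-negative α6+ cells, and all 7 Fst-positive α6-negative cells are triangles.

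The receptor genes were low and widespread, and differed less between groups than the ligand and antagonist genes. Acvr1b encodes ALK4, the type I receptor of activins. Its median was 2.71 TPM after transfer (range 0 to 44.7 TPM), 1.86 TPM in reporter-positive cells (0 to 72.4 TPM), 2.71 TPM in CD44+ reporter-negative cells (0 to 16.5 TPM), 3.72 TPM in CD44-negative α6+ cells (0 to 39.2 TPM) and 2.61 TPM in α6-negative cells (0 to 55.6 TPM). It was detected in 64.97%, 60.95%, 66.7%, 71.4% and 51.2% of cells in that order of groups, with overlapping intervals throughout. Acvr2a encodes a type II receptor that binds activins and some BMPs. Its mean was 2.54 TPM after transfer, 2.37 TPM in reporter-positive, 2.52 TPM in CD44+ reporter-negative, 3.20 TPM in CD44-negative α6+ and 6.07 TPM in α6-negative cells, and its share of positive cells was between 50.5% and 66.7%. No group stood apart in the share of cells with either activin receptor gene.

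Bmpr1a encodes ALK3, a type I BMP receptor. It was detected in 87.9% to 93.3% of the cells of every group. Its median was 8.08 TPM after transfer (range 0 to 50.4 TPM), 7.76 TPM in reporter-positive (0 to 106.2 TPM), 2.97 TPM in CD44+ reporter-negative (0.92 to 9.86 TPM), 5.04 TPM in CD44-negative α6+ (0 to 67.4 TPM) and 10.03 TPM in α6-negative cells (0 to 144.8 TPM). The CD44+ reporter-negative gate had the lowest median and no cell at 10 TPM, against 37.1% of reporter-positive cells. Within the CD44-negative α6+ gate, Bmpr1a averaged 9.76 TPM in Xist-only and 5.47 TPM in Y-linked-only cells, the reverse of the order seen for Sostdc1.

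Bmpr2 encodes the type II receptor that binds BMPs. It was detected in 94.9% of cells after transfer, 92.4% of reporter-positive, 100% of CD44+ reporter-negative, 93.4% of CD44-negative α6+ and 88.4% of α6-negative cells. Mean Bmpr2 was 5.48 TPM after transfer, 4.37 TPM in reporter-positive, 6.61 TPM in CD44+ reporter-negative, 4.07 TPM in CD44-negative α6+ and 10.97 TPM in α6-negative cells. In the α6-negative gate the fibroblast-led cells averaged 17.8 TPM and the 26 keratinocyte-led cells 6.93 TPM. Their medians were close, at 7.97 and 7.075 TPM, and 1 fibroblast-led cell at 69.1 TPM held 25.8% of the fibroblast-led sum. In the annotation, Acvr2a shares exon bases with Orc4 on the opposite strand, Bmpr1a with the antisense gene Gm17110 and Fst with the antisense gene Gm47040. The library kit keeps no strand, so reads of such partners cannot be told apart in the shared bases.

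Id1, the most abundant of the 3 target genes in 4 of the 5 groups, did not follow either ligand-side pattern between groups. It was detected in 80.2% of cells after transfer (interval 73.6 to 85.8%), 61.9% of reporter-positive cells (51.9 to 71.2%), 66.7% of CD44+ reporter-negative cells (38.4 to 88.2%), 73.6% of CD44-negative α6+ (63.3 to 82.3%) and 41.9% of α6-negative cells (27.01 to 57.9%). Its median was 16.9 TPM after transfer (range 0 to 225.8 TPM), 6.06 TPM in reporter-positive (0 to 187.2 TPM), 31.6 TPM in CD44+ reporter-negative (0 to 89.8 TPM), 14.4 TPM in CD44-negative α6+ (0 to 288.3 TPM) and 0 TPM in α6-negative cells (0 to 255.7 TPM). The interval after transfer lay above that of the reporter-positive gate, while the mean differed little, at 32.4 TPM after transfer and 25.6 TPM in reporter-positive cells. The shares were closer among cells with 6000 to 8000 genes, at 83.1% after transfer and 74.1% of 58 reporter-positive cells. In the α6-negative gate Id1 was 0 in all 15 fibroblast-led cells and averaged 30.04 TPM in the keratinocyte-led cells, a level like that of the α6+ gates.

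Id3 differed from Id1 in its distribution. It was detected in 44.1% of cells after transfer (interval 36.6 to 51.7%), 60% of reporter-positive cells (49.98 to 69.4%), 66.7% of CD44+ reporter-negative cells (38.4 to 88.2%), 69.2% of CD44-negative α6+ (58.7 to 78.5%) and 41.9% of α6-negative cells (27.01 to 57.9%). Its median was 0 TPM after transfer (range 0 to 136.9 TPM), 4.90 TPM in reporter-positive (0 to 95.9 TPM), 5.78 TPM in CD44+ reporter-negative (0 to 64.2 TPM), 10.8 TPM in CD44-negative α6+ (0 to 196.05 TPM) and 0 TPM in α6-negative cells (0 to 602 TPM). The interval after transfer lay below that of the CD44-negative α6+ gate and overlapped that of the reporter-positive gate. Between 6000 and 8000 genes the shares were closer, at 50.8% after transfer and 65.2% of 69 CD44-negative α6+ cells. Mean Id3 was higher in stromal-led cells, at 67.3 TPM in the fibroblast-led α6-negative cells and 33.3 to 61.5 TPM in the 3 stromal-led CD44+ reporter-negative cells, against 6.80 TPM in keratinocyte-led α6-negative cells and 10.3 TPM in keratinocyte-led CD44+ reporter-negative cells. The fibroblast-led α6-negative mean rested on 1 cell at 602 TPM with 59.6% of the sum, and was 29.1 TPM without it. Of the 15 fibroblast-led cells 9 were positive, as were 8 of the 26 keratinocyte-led ones, so Id3, unlike Id1, was found in both kinds of cell in the α6-negative gate. In the CD44-negative α6+ gate Id3 averaged 12.8 TPM in Xist-only and 29.3 TPM in Y-linked-only cells.

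Id2 was low in every group. It was found in 9.04% of cells after transfer, 17.1% of reporter-positive, 13.3% of CD44+ reporter-negative, 11% of CD44-negative α6+ and 25.6% of α6-negative cells, and its mean was 0.603, 0.573, 1.29, 0.773 and 3.80 TPM in that order of groups. The median was 0 TPM in all groups and the highest value was 56.2 TPM, in an α6-negative cell. At these levels its differences rest on a few cells.

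Differences between groups were taken as the log2 ratio of mean TPM with 1 added to each mean, for genes with a mean of at least 1 TPM in either group, and a gene was called past 2-fold at a log2 ratio of at least 1 or at most -1. In reporter-positive over CD44-negative α6+ cells, 9 of the 10 members passed the filter, Id2 being too low, and 3 were past 2-fold, 2 higher and 1 lower. Of all 11887 genes tested, 14.6% were past 2-fold, 9.8% higher and 4.78% lower. Inhba (log2 ratio 3.32) and Fst (1.65) were higher and Sostdc1 (-3.98) was lower. Inhba stayed past 2-fold at 1.49 to 5.87 and Sostdc1 at -4.56 to -1.84 over 16 alternative settings. Fst did not: without plate CSC1 its log2 ratio was -0.78, and among cells with 3000 to 6000 genes it was -1.02. The other members lay between -0.70 (Acvr1b) and 0.48 (Bmpr1a). The median of the 9 members was -0.27 and that of all genes tested was 0.07.

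In reporter-positive over CD44+ reporter-negative cells all 10 members passed the filter and 3 were past 2-fold, 2 higher and 1 lower. Of 12928 genes tested 29% were past 2-fold, 12.6% higher and 16.5% lower, the smaller gate having 15 cells. Inhba (2.32) and Bmpr1a (1.41) were higher and Sostdc1 (-2.68) was lower, and Fst was nearly equal in the mean (-0.01). With the second libraries of the same cells, these values were 3.10, 1.42 and -2.95. Without plate CSC1 the Inhba value was 0.86. The Sostdc1 value was 0.10 among cells with 6000 to 8000 genes (58 reporter-positive and 10 CD44+ reporter-negative cells), but 1 reporter-positive cell at 201.2 TPM held 85.8% of that gate's sum in this window. Without that cell the means were 0.584 TPM in reporter-positive and 3.71 TPM in CD44+ reporter-negative cells, the direction seen without a depth window. Over all cells of the window, Sostdc1 was detected in 6.9% of reporter-positive and 50% of CD44+ reporter-negative cells. With keratinocyte-led cells only, no called member left its side of the threshold. All typed reporter-positive cells had Y-linked transcripts only, whereas 12 of the 15 CD44+ reporter-negative cells had Xist only, so sex or animal and gate cannot be told apart in this comparison.

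In CD44+ reporter-negative over CD44-negative α6+ cells all 10 passed the filter and 2 were past 2-fold, 1 in each direction. Of 12612 genes tested 23% were past 2-fold, 16.8% higher and 6.18% lower. Fst (1.65) was higher and Sostdc1 (-1.30) was lower, and Inhba was just under 2-fold higher. Both calls turned with a setting or a few cells. Fst was -0.73 among cells with 6000 to 8000 genes, and Sostdc1 was 0.083 when the CD44-negative α6+ cells were limited to those with Xist only, the type of 12 of the 15 CD44+ reporter-negative cells. The CD44+ reporter-negative mean of Sostdc1 rested on 1 cell at 272.7 TPM with 66.1% of the sum, and was 10.01 TPM without it, against 25.9 TPM in the Xist-only and 69.4 TPM in all CD44-negative α6+ cells.

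In cells after transfer over reporter-positive cells, 9 of 10 members passed the filter, Id2 being too low, and 3 were past 2-fold, 1 higher and 2 lower. Of 11711 genes tested 11.8% were past 2-fold, 3.17% higher and 8.6% lower. Sostdc1 (1.71) was higher, and Inhba (-3.35) and Fst (-1.35) were lower. Inhba lay at -5.72 to -1.50 over 18 alternatives. It was -1.89 without CSC1 and -4.25 without OT2, so the direction did not turn on 1 plate. Inhba was -1.65 with all 6 plates labelled after transfer. That setting put libraries of the same reporter-positive cells on both sides of the ratio, so it cannot bear on this. Fst rested on CSC1 and was 1.08 without it. Sostdc1 was -1.02 among cells with 3000 to 6000 genes, where only 6 reporter-positive cells remained. The median was 0.07 for the 9 members and -0.22 for all genes.

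In cells after transfer over CD44-negative α6+ cells, 1 of the 9 members that passed the filter was past 2-fold, in the lower direction. Of 11503 genes tested 8.62% were past 2-fold, 3.91% higher and 4.71% lower. That member was Sostdc1 (-2.27), at -0.89 against the Xist-only cells alone. All typed cells after transfer had Y-linked transcripts only, and averaged with the rest 13.6 TPM of Sostdc1. The CD44-negative α6+ cells with Y-linked transcripts only averaged 104.03 TPM. Inhba (-0.03), Fst (0.29) and Id1 (0.06) were close to equal in the mean, and Id3 was -0.91. The cells after transfer thus had mean Inhba and Fst near those of the CD44-negative α6+ gate and a mean Sostdc1 between those of the reporter-positive and CD44-negative α6+ gates. Comparisons with the same group share its cells and are not independent of each other.

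In CD44-negative α6+ over α6-negative cells, 5 of 10 members were past 2-fold, 1 higher and 4 lower. Of 13507 genes tested 34.4% were past 2-fold, 8.66% higher and 25.7% lower. Sostdc1 (1.96) was higher, and Inhba (-3.38), Id2 (-1.44), Bmpr2 (-1.24) and Bmpr1a (-1.12) were lower, while Fst was just under 2-fold higher. This contrast moved with the stromal cells of the α6-negative gate. With keratinocyte-led cells only, Inhba was -2.18, Bmpr2 -0.64, Fst 2.31 and Id3 1.49, the last against -0.59 with all cells. The Inhba value then rested on 2 α6-negative cells, and the share of positive cells was 6.59% in CD44-negative α6+ and 7.69% in keratinocyte-led α6-negative cells. With the Xist-only cells of the CD44-negative α6+ gate alone, Sostdc1 was 0.58. The α6-negative mean of Sostdc1 rested on 1 cell at 394.6 TPM with 53.7% of the sum. Without that cell it was 8.09 TPM, against 25.9 TPM in the Xist-only cells. All typed α6-negative cells had Y-linked transcripts only, and the mean of that gate was 17.1 TPM of Sostdc1. The CD44-negative α6+ cells with Y-linked transcripts only averaged 104.03 TPM. The median of all genes was -0.31, so genes in general were lower in the α6+ gate on this scale. The α6-negative gate also had the fewest genes per cell and a median spike-in share of 2.78%, and the part of these in the result was not tested.

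**Figure D3:**
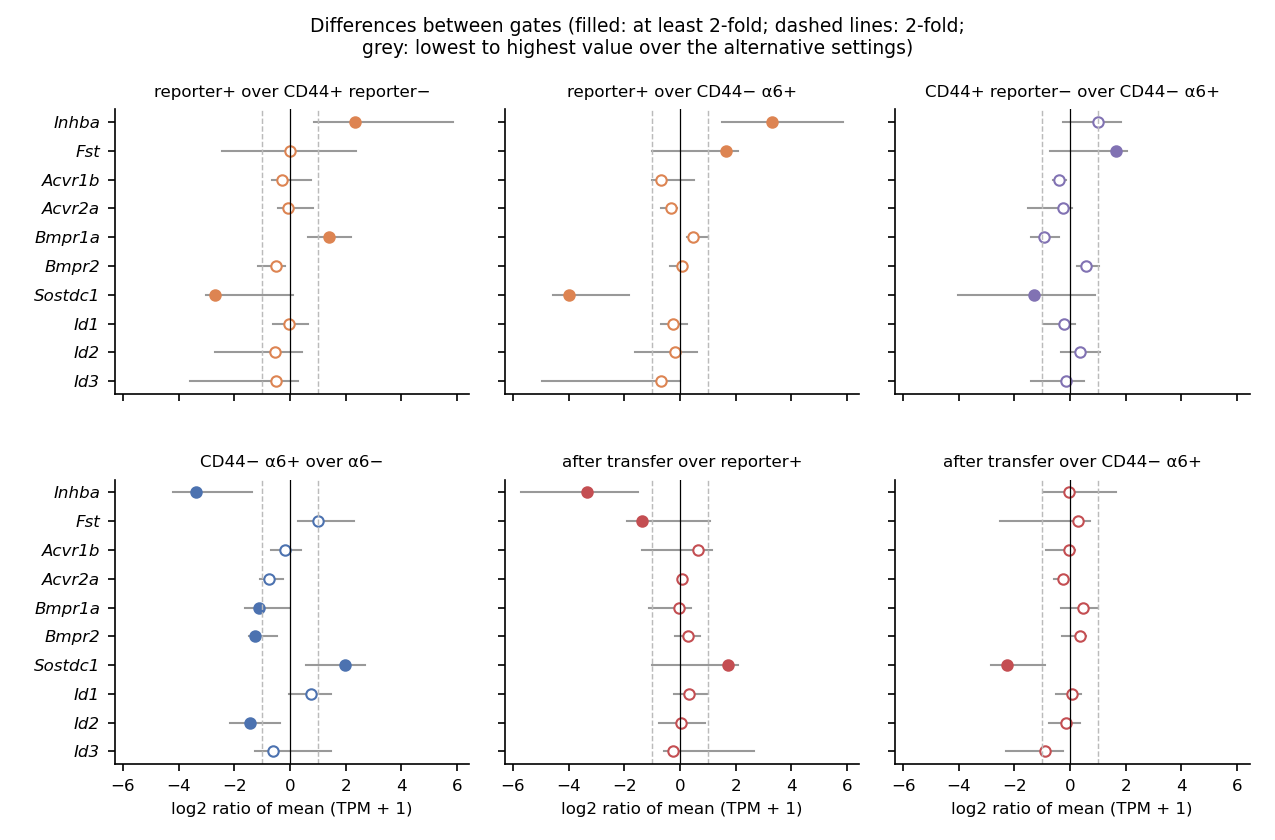
Log2 ratio of mean (TPM + 1) for each member (rows) in the 6 comparisons (panels), filled where at least 2-fold, with the lowest and highest value over the alternative settings as grey lines and 2-fold as dashed lines. Inhba and Sostdc1 keep their side of 0 in reporter-positive over CD44-negative α6+ cells, whereas the Fst lines cross 0 there and in cells after transfer over reporter-positive cells.

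The second libraries showed how far a call repeats between libraries of the same well name that were each other's best match in expression profile. Libraries without such a match were left out, so the pairs were chosen for agreement over genes in general. There were 71 such pairs for CSC1, 29 for CSC2, 14 for the CD44+ plate, 47 for OT2 and 43 for OT_B. Those for OT2 came from 79 kept libraries of OT_A, and those for OT_B from 69 of OT1. The median r of the paired profiles was 0.88 to 0.93 by plate, and the lowest r of a pair was 0.47, on CSC2. Over all pairs, Inhba was positive in both libraries of 50, in 1 library of 7 and in neither of the rest, which is the same call in 96.6% of pairs. The same call was made for Fst in 96.1%, Bmpr1a in 96.6%, Bmpr2 in 94.6%, Id3 in 93.1%, Sostdc1, Id1 and Id2 in 91.7%, Acvr1b in 90.2% and Acvr2a in 76.96% of pairs. Within these matched pairs, the absence of Inhba from most cells thus repeated between libraries. Correlation of log2(TPM + 1) over the pairs was 0.98 for Inhba and Fst, 0.96 for Sostdc1, 0.93 for Id1, 0.92 for Id3, 0.74 for Acvr2a and 0.57 for Id2. All 20 cells with Sostdc1 at 10 TPM or more in the used library, and 31 of 32 such cells for Inhba, were positive again. The sources used here do not say at which step the libraries of a pair were separated, and losses before that step are shared by both.

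**Figure D4:**
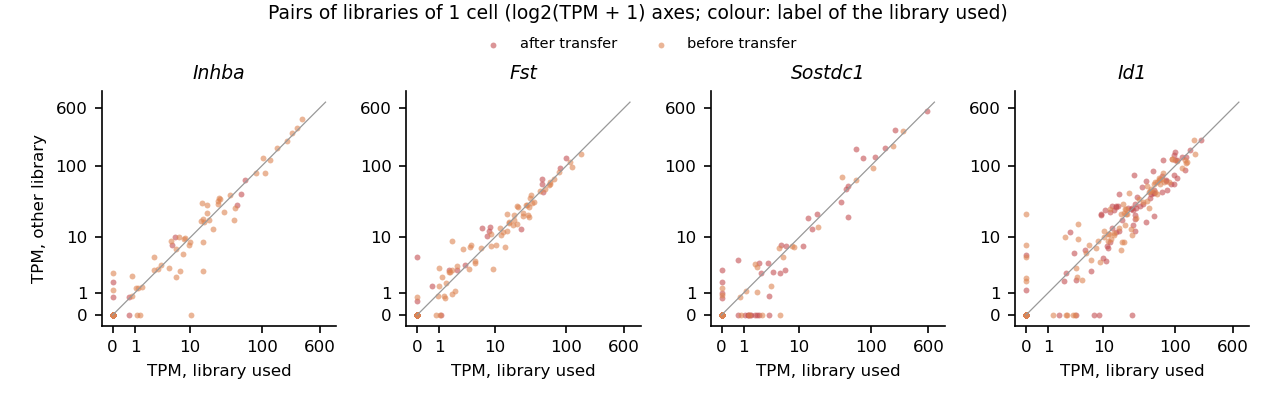
TPM in the library left out (vertical) against TPM in the library used (horizontal) for Inhba, Fst, Sostdc1 and Id1, on log2(TPM + 1) axes, 1 point per pair and the line of equality in grey. Points lie along the line over the whole range, and the discordant points on the axes are nearly all below 10 TPM.

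Among cells of 1 group, Inhba and Fst tended to occur together and away from Id1, most clearly on plates CSC1 and OT2. In reporter-positive cells, 33 of the 46 Inhba-positive cells also had Fst, against 23 of the 59 cells below 1 TPM of Inhba. CSC1 was higher than CSC2 in both genes, and on CSC2 the counts were 3 of 9 and 4 of 23. Pearson's r of log2(TPM + 1) was 0.39 over the cells after transfer, 0.36 over the reporter-positive cells and 0.12 over the 91 CD44-negative α6+ cells. By plate, r was 0.46 on OT2, 0.14 on OT_B, 0.34 on CSC1 and 0.16 on CSC2. These are descriptions over cells of the same plates, which share handling and depth.

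Id1 ran the other way. Of the 29 reporter-positive cells with Inhba at 10 TPM or more, 13 had Id1, against 43 of the 59 below 1 TPM of Inhba. This came from CSC1 (39.1% and 77.8%), and on CSC2 the shares were 66.7% (4 of 6) and 65.2% (15 of 23). Of the 33 with Fst at 10 TPM or more, 13 had Id1, against 36 of the 49 below 1 TPM of Fst. The same held after transfer, where 3 of the 13 cells with Fst at 10 TPM or more had Id1 (23.1%), against 87.9% of those below 1 TPM. For Fst and Id1, r was -0.41 after transfer, -0.36 in reporter-positive cells and 0.00 in CD44-negative α6+ cells, and for Inhba and Id1 it was -0.24, -0.38 and -0.17. By plate, the Fst and Id1 value was -0.56 on OT2, -0.21 on OT_B, -0.46 on CSC1 and -0.18 on CSC2, and the Inhba and Id1 value was -0.36, 0.00, -0.44 and -0.25 in the same order. Removing the linear part of genes per cell left -0.40 for Fst and Id1 and -0.42 for Inhba and Id1 in reporter-positive cells. Taking the first gene from the used library and Id1 from the other library of 100 reporter-positive cells gave -0.37 for Fst and -0.38 for Inhba, close to the values within 1 library.

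The 3 target genes did not move together. For Id1 and Id3, r was -0.20 after transfer, -0.10 in reporter-positive and 0.01 in CD44-negative α6+ cells. For Id3 and Sostdc1, r was 0.38 after transfer (0.41 on OT2 and 0.38 on OT_B), 0.24 in CD44-negative α6+ cells, where both genes were higher in Y-linked-only cells, -0.01 in reporter-positive cells, of which few had Sostdc1, and -0.20 in α6-negative cells. For Fst and Id3, r was 0.36 after transfer (0.35 on each plate) and 0.14 in reporter-positive cells. With the linear part of genes per cell removed, the Fst and Id3 values were 0.26 and 0.12. After transfer, 22 of the 30 cells with Sostdc1 at 10 TPM or more had Id3 (73.3%), against 34.5% of those below 1 TPM. In CD44+ reporter-negative cells the counts ran the other way, at 1 of 4 and 6 of 7.

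**Figure D5:**
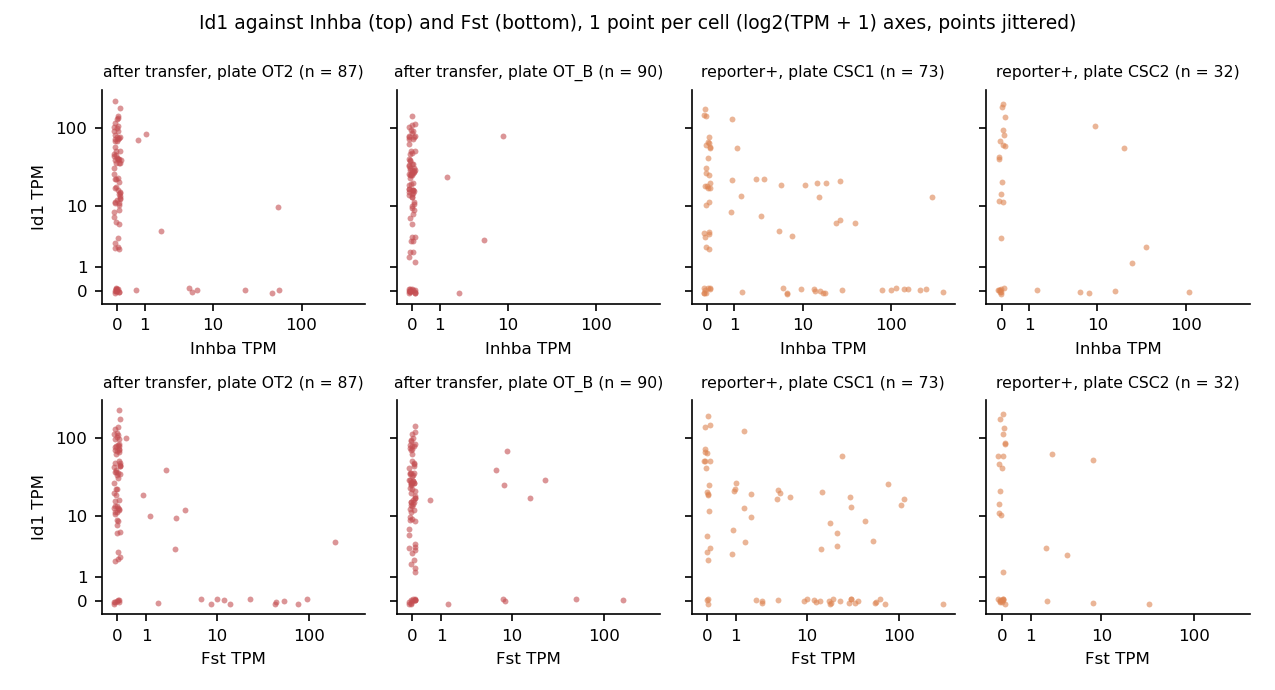
Id1 TPM (vertical) against Inhba TPM (top row) and Fst TPM (bottom row), on log2(TPM + 1) axes with jitter, 1 point per cell, in the 2 plates after transfer and the 2 reporter-positive plates. On OT2 and CSC1, most cells with Inhba or Fst at 10 TPM or more had Id1 below 1 TPM. This was clearest for Fst (r of -0.56 on OT2 and -0.46 on CSC1). On CSC2, 4 of 6 cells at this Inhba level had Id1, and on OT_B 2 of 4 cells at this Fst level had it.

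The rest of the pathway was read from 73 other genes in 8 lists (ligands, antagonists, receptors, co-receptors, SMADs and their regulators, targets), of which 42 reached a mean of 1 TPM in any group. In reporter-positive over CD44-negative α6+ cells, 6 of 30 that passed the filter were past 2-fold higher and 3 lower (all genes: 9.8% and 4.78%). The higher ones were Grem1, Acvrl1, Acvr1, Smurf1, Tgif1 and Pmepa1, and the lower ones Bmp4, Rgma and Smad1. Acvrl1, encoding the type I receptor ALK1, stood at 8.53 TPM and 57.1% of cells in the reporter-positive gate, against 1.06 TPM and 11% of cells in the CD44-negative α6+ gate. Acvr1, encoding the BMP type I receptor ALK2, stood at 7.06 TPM in reporter-positive and 2.27 TPM in CD44-negative α6+ cells. Rgma, encoding a BMP co-receptor, stood at 1.29 TPM in reporter-positive and 12.1 TPM in CD44-negative α6+ cells, and Smad1, encoding a BMP SMAD, at 2.23 TPM and 5.90 TPM. Genes of the BMP branch thus lay on both sides.

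In cells after transfer, 1 of 28 other genes was past 2-fold higher and 3 lower than in reporter-positive cells (all genes: 3.17% and 8.6%). Rgma was the higher one, at 4.65 TPM after transfer and 1.29 TPM in reporter-positive cells. Acvrl1 was lower, at 2.45 TPM and 16.4% of cells after transfer, against the reporter-positive 57.1%, and so was Nbl1, encoding a BMP antagonist, at 2.35 TPM after transfer and 7.53 TPM in reporter-positive cells.

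In reporter-positive over CD44+ reporter-negative cells, 3 of 32 other genes were past 2-fold higher and 7 lower (all genes: 12.6% and 16.5%). Smad3, encoding a SMAD of the activin and TGF-beta branch, averaged 11.1 TPM in reporter-positive and 3.28 TPM in CD44+ reporter-negative cells. Smad1 was lower, at 2.23 TPM in reporter-positive and 11.8 TPM in CD44+ reporter-negative cells, and detected in 48.6% and 93.3% of them. Inhbb, encoding the βB subunit, averaged 2.09 TPM in reporter-positive and 0.215 TPM in CD44+ reporter-negative cells. Fstl3, encoding a follistatin-like activin antagonist, averaged 8.59 TPM in reporter-positive and 21.9 TPM in CD44+ reporter-negative cells. In the keratinocyte-led cells of the CD44+ gate, Fstl3 was 15.7 TPM, and Eng, also among the 7 lower genes, was 0. Smad3, Smad1 and Inhbb were 3.61, 13.3 and 0.268 TPM in these cells, near the values of the whole gate.

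In CD44+ reporter-negative over CD44-negative α6+ cells, 8 of 32 were past 2-fold higher and 2 lower (all genes: 16.8% and 6.18%). Eng, encoding the co-receptor endoglin, averaged 26.5 TPM in CD44+ reporter-negative and 0.0613 TPM in CD44-negative α6+ cells, but was 0 in the 12 keratinocyte-led cells of the CD44+ gate. Acvrl1 likewise averaged 8.58 TPM in the CD44+ gate and 0.355 TPM in its keratinocyte-led cells. Fstl3 was 15.7 TPM in those keratinocyte-led cells, against 5.58 TPM in CD44-negative α6+ cells.

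In CD44-negative α6+ over α6-negative cells, none of 40 was past 2-fold higher and 20 were lower (all genes: 8.66% and 25.7%). They included the antagonist gene Grem1, listed at 0 in CD44-negative α6+ cells and at 65.7 TPM in the 16 fibroblast-led cells of all gates, and Nbl1, at 4.03 TPM in CD44-negative α6+ and 81.4 TPM in fibroblast-led cells. Bmp4 averaged 1.202 TPM in CD44-negative α6+ and 8.501 TPM in α6-negative cells, with a mean of 18.005 TPM in the fibroblast-led cells of all gates. Inhbb was 1.51 TPM in CD44-negative α6+ and 9.31 TPM in α6-negative cells, where keratinocyte-led cells had 9.93 TPM, and Skil, a SMAD co-repressor gene, was 5.89 and 17.4 TPM. The fibroblast-led cells thus carried most of the Grem1, Nbl1 and Bmp4 transcripts of the α6-negative gate. In cells after transfer over CD44-negative α6+ cells, none of 28 was past 2-fold higher and 2 were lower (all genes: 3.91% and 4.71%). The 2 lower genes were Bmp4 and Rgma.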

How the data were processed

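Gene expression was measured in sorted single cells by the Smart-seq2 full-length protocol with Nextera XT libraries. The deposited values are TPM per gene and library, made by the authors. The build mm10 and the tools RSEM 1.2.30 and Bowtie2 2.2.9 are named in the submitters' processing notes. TPM hides read depth. The number of genes with a TPM of 1 or more was used instead, and no interval based on reads could be given. A set of 8 ribosomal rows took a median of 71.5% to 75.1% of TPM per group, and the other genes share the rest.

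Libraries with at least 2000 such genes were used. Gene rows (46005 of 46517) and all 10 members matched GENCODE M21 on the same build. Second libraries were paired by well and mutual best correlation of log2(TPM + 1). Cells were assigned to the marker list with the highest mean log2(TPM + 1). Folds, means, exact (Clopper-Pearson) intervals and correlations were computed with Python 3.11.15, pandas 2.3.3, numpy 2.4.6 and scipy 1.17.1. With 1 sample per group no test between groups was made. Alternatives changed the pseudocount, the filters, the depth window, the scaling, the plates and the cells by marker or sex-linked transcripts. The members, lists and the rule below were chosen with earlier results of these data known. Other pathway genes were named where the higher group had a mean of at least 5 TPM and the difference was past 2-fold in any comparison, at most the 12 largest of the 17 that qualified, and 1 of these is not reported here. Acvr1, Smurf1, Tgif1 and Pmepa1 were named after their values were seen, to complete a list. Genes most like a member were the 3 with the highest Pearson r of log2(TPM + 1) after subtracting group means.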

Additional observations from a re-analysis of the deposited data

Results flagged for a closer look

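Plate OT_C, labelled after transfer and left out of the groups, carried several members in more of its 72 kept libraries than the cells used after transfer did. Inhba was detected in 51.4% of them against 7.34%, Fst in 61.1% against 15.8%, Id2 in 23.6% against 9.04% and Id3 in 68.1% against 44.1%. Plate OT_D, also labelled after transfer and left out, had Inhba in 24.4% of 45 libraries against 7.34%. These plates were set apart because they lie outside the main comparisons and exceed the cells used. Of their libraries, 71 of 72 on OT_C paired with a well of CSC1, which is labelled before transfer, and 29 and 14 of 45 on OT_D paired with CSC2 and the CD44+ plate. Which label is right was not settled by the files.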

How the results depend on the processing

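Counts of members past 2-fold stayed within 1.5 times of the value reported in 74 of 92 checks and moved in 18. The share of all genes past 2-fold was not taken under the alternative settings. A moved count is therefore not read as a result about the members. With only cells of 3000 to 6000 genes, the count was 7 for reporter-positive over CD44+ reporter-negative, 5 for reporter-positive over CD44-negative α6+, 5 for CD44+ reporter-negative over CD44-negative α6+, 6 for after transfer over reporter-positive and 3 for after transfer over CD44-negative α6+ cells, with as few as 3 cells in a group. For CD44+ reporter-negative over CD44-negative α6+ it was 4 with a pseudocount of 0.1 and 1 each with a pseudocount of 10, 6000 to 8000 genes, mean log2 values or keratinocyte-led cells only. For CD44-negative α6+ over α6-negative it was 2 with a pseudocount of 10 and 3 with mean log2 values. For after transfer over reporter-positive it was 1 with a pseudocount of 10. For after transfer over CD44-negative α6+ it was 2 with mean log2 values, all 6 plates, without plate OT2 or against Y-linked-only cells, and 0 against Xist-only cells. Among 920 checks of single members, 8 reversed a called direction. With 3000 to 6000 genes these were Fst at -1.02 (reporter-positive over CD44-negative α6+), Sostdc1 at 0.89 (CD44+ reporter-negative over CD44-negative α6+) and Sostdc1 at -1.02 (after transfer over reporter-positive). With 6000 to 8000 genes they were Sostdc1 at 0.10 (reporter-positive over CD44+ reporter-negative, where 1 reporter-positive cell held 85.8% of the sum and the shares of positive cells were 6.9% and 50%) and Fst at -0.73 (CD44+ reporter-negative over CD44-negative α6+). Without CSC1, Fst was -0.78 over CD44-negative α6+ and 1.08 for after transfer over reporter-positive. With Xist-only cells, Sostdc1 was 0.083 (CD44+ reporter-negative over CD44-negative α6+). Other causes were not tested. The second-library and near-identical-well settings were chosen after seeing the data. No paired analysis was possible because the labels give no animal and the groups share no replicate.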

Other observations

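Genes whose levels ran most closely with a member were sought over all cells used, after the mean of each group was subtracted, among 11847 genes detected in at least 10% of cells. For Inhba they were Soat1, a cholesterol esterification enzyme gene (r 0.60), Itga5, the fibronectin receptor subunit gene (0.54), and Timp1, a metalloproteinase inhibitor gene (0.53). Soat1 was detected in 16.4% of cells after transfer, 72.4% of reporter-positive, 26.7% of CD44+ reporter-negative, 13.2% of CD44-negative α6+ and 27.9% of α6-negative cells. For Fst they were Nedd9, a focal adhesion scaffold gene (0.63), Itga2, a collagen receptor subunit gene (0.62), and Arl4c (0.61).

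For Id1 they were Rhov (0.48), Ephx3 (0.48) and Dsg1b, a desmoglein gene (0.47). Dsg1b was detected in 79.7% of cells after transfer and 56.2% of reporter-positive cells. For Sostdc1 they were Neurl1b (0.51), Aldh3a1, an aldehyde dehydrogenase gene (0.46), and Nfib, a hair follicle stem cell transcription factor gene (0.41). For Id3 they were Ftl1 (0.46), Cav1, the caveolin gene (0.43), and Prkcdbp (0.42). No gene came close to Id2, the highest being Rsf1 (0.28). These correlations are across cells that share plates, and ranks this close to each other carry no order. The stromal-led cells were included, and differences between cell types of 1 gate or plates of 1 group were not removed.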
